A study of Zea mays with 18 samples.

Results

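The response of maize leaves to cold was described as the difference between 12 libraries made after 24 or 48 h of cold and 6 libraries made at 0 h, out of 18 libraries in all. Both genotypes were pooled, and members were chosen by the time in the sample titles: every 24 h and 48 h library entered the cold side and every 0 h library the other. The inbred line B73 (wild type) and a zmzfp69 line in the B73 background each gave 3 libraries at 0 h, 3 at 24 h and 3 at 48 h, each library a biological replicate made from leaves of 50 seedlings. Before the move to 4 °C, seedlings of both genotypes were raised at 25 °C under days with 16 h of light. The question was which genes moved the same way in both genotypes and at both times.

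Several limits come with the groups. Even 0 h samples carry 4 °C as their treatment label, and 0 h was taken to mean before transfer. No group was kept warm for 24 or 48 h, so cold and elapsed time cannot be told apart, and the sources used here do not give the hour of sampling. The label fields disagree on whether the zmzfp69 line (called the mutant below) is a mutant or a knock-down, and no gene name in the table matched ZFP69 (0 names), so that gene could not be used as a check of the genotypes. In 4 mutant libraries, replicates 2 and 3 at 24 and at 48 h, the description field gives 0 h where the title gives 24 or 48 h. Titles were followed, and counts without these 4 libraries are given below.

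Maize is a chilling-sensitive C4 grass of tropical origin. In plants, low temperature stiffens membranes and raises cytosolic calcium, and kinase cascades pass the signal to transcription factors such as the CBF/DREB proteins, which bind the C-repeat element of cold-regulated promoters. Growth hormones, sugar metabolism and the circadian clock are known to be adjusted in cold leaves, and dehydrins and related proteins are known to accumulate.

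Expression of 50118 genes was measured as FPKM, in which fragments are divided by gene length and a library scale. Libraries held between 14795794 and 19070464 reads as recovered from the table. Of all genes, 23141 reached at least 1 FPKM in at least 3 of the 18 libraries and entered the tests as log2(FPKM + 1), a scale that understates changes of low genes. A gene near 0 on one side passed this filter only through the side where it was high, which favoured its direction in advance. Reads of plastid and mitochondrial genes took 0.0344 to 0.104% of a library at 0 h and 0.0554 to 0.407% in the cold. One library stood apart: mutant 24 h replicate 2 lay at -68.5 on the first principal component (42.2% of the variance), between the 0 h libraries (-103 to -89.9) and the other cold libraries (-7.53 to 112).

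After cold, 7744 of the 23141 genes tested differed from 0 h (33.5% called, at an adjusted p under 0.05 with limma and Benjamini-Hochberg adjustment over all genes tested). Of these, 3630 rose (15.7% of the genes tested) and 4114 fell (17.8%). The median difference was 1.32 over the genes that rose and fell by 1.00 over those that fell, on the log2(FPKM + 1) scale, and 2430 and 2037 of them changed by 1 or more. The split depended on scaling. With each library scaled to its total of reads, the median of all genes fell by 0.39 against 0.03 as deposited, and 2280 genes were called higher and 7203 lower, so that 24.0% of calls were rises against 46.9%. Directions below are therefore relative to the typical gene under the deposited scaling. Counts of list members below are to be read beside the shares of all genes tested, 15.7% rising and 17.8% falling. In bulk leaves, fewer cells of a type and less RNA per cell cannot be told apart. The p-values set each difference against the spread within the pooled groups, which holds the change from 24 to 48 h besides replicate spread. With a model of the 6 group means 9687 genes were called, 4716 higher and 4971 lower.

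Most called genes moved the same way in both genotypes and at both times, which the pooled call itself favours. Group means moved in the same direction in all 4 cold groups for 3546 of the genes that rose (97.7%) and 3999 of those that fell (97.2%), beside 52.4% of all genes tested; the call and these means come from the same libraries, and both times of a genotype share their 0 h libraries, so the shares are a description. The smallest of the 4 differences was at least 1 for 1099 risen and 714 fallen genes, and at least 2 for 344 risen and 85 fallen genes. All 12 cold libraries lay beyond all 6 libraries of 0 h for 729 genes upward and 684 downward, 6.11% of the genes tested. Mutant 24 h replicate 2 weighed on several counts: without it 9107 genes were called (4288 higher, 4819 lower). The count of genes without overlap rose from 1413 to 2431 without that library, and without the 4 libraries with conflicting labels it was 1449 upward and 1226 downward. Over the risen genes the median difference from 0 h was 1.08 in B73 and 0.87 in the mutant at 24 h, and 1.47 and 1.73 at 48 h. Over the fallen genes it was -0.81 and -0.89 at 24 h and -1.04 and -1.24 at 48 h. Mutant 24 h replicate 2 had the smallest medians of the 12 cold libraries, 0.33 and -0.60, with 68.0% of risen genes above and 83.5% of fallen genes below the 0 h mean.

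**Figure D1:**
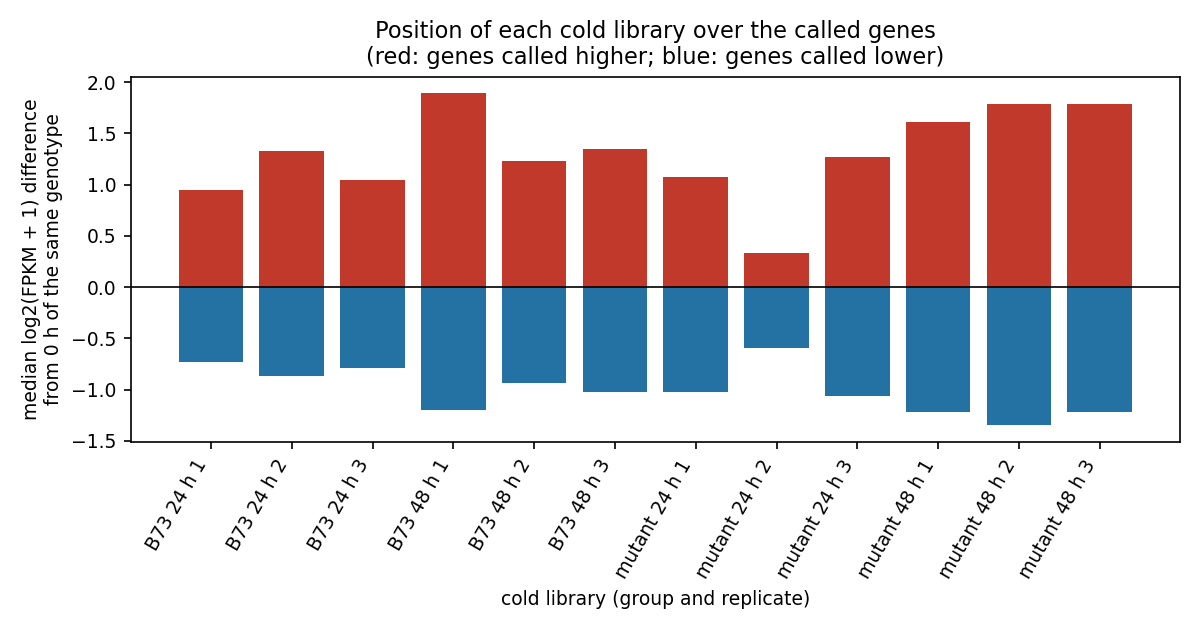
Bars show, for each of the 12 cold libraries, the median log2(FPKM + 1) difference from the 0 h mean of its genotype over the 3630 genes called higher (red) and the 4114 called lower (blue). Medians over the risen genes ran from 0.33 in mutant 24 h replicate 2 to 1.89 in B73 48 h replicate 1; the genes were chosen on these libraries, so the bars describe them.

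The largest shared rise belonged to 12-oxo-phytodienoic acid reductase1 (Zm00001d044908, chromosome 9, 6927730 to 6929377, minus strand, in the coordinates of the deposited table, which names no genome build apart from unplaced contigs with the prefix B73V4). Enzymes of its family reduce oxylipins, and some make the jasmonate precursor. Its level ranged from 0.0374 to 3.76 FPKM (median 0.537) at 0 h and from 53.5 to 4438 FPKM (median 1326) in the cold, a rise of 9.25 (SE 0.74, limma adjusted p = 2.02e-07). All 12 cold libraries were above every 0 h library. Its neighbour 12-oxo-phytodienoic acid reductase2 (Zm00001d044906, chromosome 9, 6893412 to 6895013, plus strand) ranged from 0.308 to 14.5 FPKM (median 3.26) at 0 h and from 39.6 to 1249 FPKM (median 282) in the cold, a rise of 6.20 (SE 0.70, limma adjusted p = 6.41e-06), again without overlap. Reads from such similar copies may have been split between them by the counting. The 12 risen and 12 fallen genes with the largest shared change were chosen among genes without overlap. For them the lack of overlap was fixed by the choice and is no separate result.

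Kinases of phosphoenolpyruvate carboxylase rose strongly. They phosphorylate the enzyme that first fixes carbon in C4 leaves and make it less sensitive to malate. Phosphoenolpyruvate carboxylase kinase3 (Zm00001d017270, chromosome 5, 191243684 to 191245128, plus strand) ranged from 1.33 to 3.62 FPKM (median 2.23) at 0 h and from 62.97 to 805 FPKM (median 300.2) in the cold, a rise of 6.31 (SE 0.54, limma adjusted p = 4.63e-07). Kinase2 (Zm00001d051156, chromosome 4, 146401256 to 146402641, plus strand) ranged from 0.961 to 4.72 FPKM (median 2.02) at 0 h and from 33.2 to 2508 FPKM (median 710.1) in the cold, a rise of 7.27 (SE 0.65, limma adjusted p = 5.73e-07). Neither gene overlapped between the groups. Kinase4 (Zm00001d003068) ranged from 0.0679 to 1.38 FPKM (median 0.614) at 0 h and from 4.47 to 185 FPKM (median 39.7) in the cold, a rise of 4.70 (SE 0.64, limma adjusted p = 3.97e-05), and did not overlap either. Kinase1 (Zm00001d018429) ranged from 1.54 to 29.9 FPKM (median 7.76) at 0 h and from 8.67 to 235 FPKM (median 94.1) in the cold, a rise of 2.74 (SE 0.69, limma adjusted p = 0.0059), and its groups overlapped. Of 77 tested genes listed by name under C4 and carbon fixation, 17 rose (22.1%), these kinases among them. Another 3 fell (3.9%) and 57 were not called, and the median difference was 0.31 beside -0.03 over all genes. Over all genes tested, 15.7% rose and 17.8% fell. Not called were phosphoenolpyruvate carboxylase1 (0.55, limma adjusted p = 0.37), NADP malic enzyme3 (0.69, limma adjusted p = 0.219) and Rubisco small subunit1 (0.92, limma adjusted p = 0.161). The names also took in other enzymes, such as isopropylmalate dehydrogenases. Without B73 0 h replicate 2, 11 genes of the list rose, and 11 rose and 1 fell without the 4 libraries with conflicting labels. With library-total scaling the counts were 9 and 9, and with quantile normalization 12 and 8. Among those that fell was rubisco accumulation factor2 (Zm00001d034715), which ranged from 79.3 to 198 FPKM (median 96.4) at 0 h and from 21.6 to 164 FPKM (median 43.8) in the cold, a value that fell by 1.27 (SE 0.39, limma adjusted p = 0.0177); its call was lost without the 4 libraries with conflicting labels.

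Sugar signalling and phosphate transport were represented among the strongest shared rises. Trehalose-phosphate phosphatases remove the phosphate from trehalose 6-phosphate, a signal of sucrose supply. Probable trehalose-phosphate phosphatase 9 (Zm00001d029371, chromosome 1, 67927389 to 67929661, plus strand) ranged from 3.35 to 5.64 FPKM (median 4.43) at 0 h and from 44.9 to 880.1 FPKM (median 297) in the cold, a rise of 5.75 (SE 0.47, limma adjusted p = 2.32e-07). The related trehalose-6-phosphate phosphatase6 (Zm00001d017502) ranged from 9.39 to 21.1 FPKM (median 12.4) at 0 h and from 52.9 to 1336 FPKM (median 251) in the cold, a rise of 4.22 (SE 0.53, limma adjusted p = 2.14e-05). In both, the lowest cold library was above the highest at 0 h. Of 33 tested genes of the trehalose and raffinose pathway, 10 rose (30.3%) and 3 fell (9.09%), beside 15.7% and 17.8% of all genes tested. With library-total scaling 8 rose and 5 fell, with quantile normalization 9 and 3, and 6 rose without mutant 0 h replicate 2. Without mutant 24 h replicate 2, and likewise without the 4 libraries with conflicting labels, 5 fell. Trehalose-6-phosphate synthase5 (Zm00001d005687) went the other way: it ranged from 10.6 to 56.4 FPKM (median 16.4) at 0 h and from 0.886 to 6.47 FPKM (median 1.98) in the cold, a value that fell by 2.68 (SE 0.28, limma adjusted p = 3.26e-06). Phosphate transporter protein7 (Zm00001d031875, chromosome 1, 205091435 to 205093066, minus strand), a carrier of inorganic phosphate, ranged from 0.705 to 2.76 FPKM (median 1.56) at 0 h and from 39.7 to 812 FPKM (median 293) in the cold, a rise of 6.43 (SE 0.55, limma adjusted p = 4.45e-07), and did not overlap.

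Hormone genes moved in several directions. Gibberellin 2-oxidases inactivate gibberellins, the hormones that drive stem and leaf elongation. Gibberellin 2-oxidase3 (Zm00001d043411, chromosome 3, 199019233 to 199021284, minus strand) ranged from 0.552 to 3.97 FPKM (median 0.997) at 0 h and from 15.7 to 843 FPKM (median 179) in the cold, a rise of 6.08 (SE 0.59, limma adjusted p = 1.37e-06), with every cold library above every 0 h library. Gibberellin 2-oxidase6 (Zm00001d037724) ranged from 0.0615 to 2.10 FPKM (median 0.229) at 0 h and from 0.525 to 239.6 FPKM (median 47.3) in the cold, a rise of 4.90 (SE 0.70, limma adjusted p = 6.87e-05); here the lowest cold library fell within the 0 h range. Gibberellin 20-oxidase1 (Zm00001d034898), an enzyme of gibberellin synthesis, ranged from 1.83 to 5.03 FPKM (median 3.37) at 0 h and from 0 to 3.45 FPKM (median 0.418) in the cold, a value that fell by 1.44 (SE 0.26, limma adjusted p = 0.000468). Of 32 tested gibberellin genes, 9 rose (28.1%) and 4 fell (12.5%), beside 15.7% and 17.8% of all genes tested. With library-total scaling 7 rose and 7 fell, with quantile normalization 8 and 5, and 14 rose without mutant 24 h replicate 2. Without the 4 libraries with conflicting labels, 2 fell. Members of the 2-oxidase family made up 5 of the 9, and similar copies can share reads. Of the 5, gibberellin 2-oxidase4 was at 0 in every 0 h library, and 2-oxidase2 reached at most 0.133 FPKM there. The 0 h medians of 2-oxidase6 and 2-oxidase10 were 0.229 and 0.464 FPKM. All of these but 2-oxidase3 could pass the filter only with cold libraries, so for them a rise was favoured in advance. Another gene described as a 2-oxidase (Zm00001d039102) fell by 0.83 (SE 0.21, limma adjusted p = 0.00588), and further 2-oxidases were not called. Neither were gibberellin 20-oxidase3 (0.05) and gibberellin 20-oxidase4 (-0.51).

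Abscisic acid, the hormone of water stress, showed a fall in a synthesis gene and a rise in a breakdown gene. Nine-cis-epoxycarotenoid dioxygenases catalyse the step that limits its synthesis. Nine-cis-epoxycarotenoid dioxygenase6 (Zm00001d051556, chromosome 4, 162737448 to 162739364, minus strand) ranged from 10.5 to 55.8 FPKM (median 26.3) at 0 h and from 0 to 5.90 FPKM (median 1.28) in the cold, a value that fell by 3.39 (SE 0.36, limma adjusted p = 3.75e-06). An abscisic acid 8'-hydroxylase (Zm00001d017762), the type of enzyme that inactivates it by oxidation, ranged from 1.36 to 3.86 FPKM (median 3.05) at 0 h and from 27.6 to 360.2 FPKM (median 121) in the cold, a rise of 5.0 (SE 0.50, limma adjusted p = 1.84e-06). Probable protein phosphatase 2C 34 (Zm00001d034109, chromosome 1, 284176337 to 284179392, minus strand), of a class that includes repressors of abscisic acid signalling, ranged from 1.66 to 5.54 FPKM (median 3.57) at 0 h and from 26.8 to 648 FPKM (median 284) in the cold, a rise of 5.28 (SE 0.57, limma adjusted p = 4.13e-06). None of these 3 genes overlapped between cold and 0 h. Of 162 tested genes in this list, 44 rose (27.2%) and 23 fell (14.2%) under the deposited scaling, beside 15.7% and 17.8% of all genes tested. With quantile normalization 41 rose and 29 fell, but with library-total scaling 30 rose and 47 fell.

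Jasmonate genes rose more often than they fell: 26 of 65 tested rose (40%) and 5 fell (7.69%), beside 15.7% and 17.8% of all genes tested. The counts were 23 and 13 with library-total scaling and 26 and 8 with quantile normalization. Without mutant 24 h replicate 2, 29 rose and 8 fell. The list took in lipoxygenases, which start jasmonate synthesis, and the TIFY or ZIM proteins, which include the repressors of jasmonate signalling. Tassel seed1 (Zm00001d003533), a lipoxygenase, ranged from 3.98 to 9.66 FPKM (median 6.32) at 0 h and from 25.1 to 558 FPKM (median 193) in the cold, a rise of 4.69 (SE 0.46, limma adjusted p = 1.67e-06), with no overlap. ZIM-transcription factor 28 (Zm00001d020614) ranged from 0.787 to 7.09 FPKM (median 2.65) at 0 h and from 6.27 to 135 FPKM (median 67.7) in the cold, a rise of 3.82 (SE 0.58, limma adjusted p = 0.000112), and its groups overlapped. ZIM-transcription factor 15 (Zm00001d005726) ranged from 14.7 to 21.3 FPKM (median 18.4) at 0 h and from 33.4 to 230.4 FPKM (median 141) in the cold, a rise of 2.78 (SE 0.33, limma adjusted p = 1.09e-05), with no overlap. Lipoxygenase11 (Zm00001d015852) ranged from 4.03 to 9.32 FPKM (median 7.11) at 0 h and from 0.144 to 5.28 FPKM (median 1.48) in the cold, a value that fell by 1.62 (SE 0.28, limma adjusted p = 0.000335).

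Auxin genes were divided too, with 35 of 113 tested rising (31%) and 22 falling (19.5%), beside 15.7% and 17.8% of all genes tested. The counts were 23 and 26 with library-total scaling and 33 and 20 with quantile normalization. SAUR genes respond early to auxin and act in cell expansion. Auxin-responsive protein SAUR36 (Zm00001d021459, chromosome 7, 152719949 to 152720386, plus strand) was the strongest shared fall: it ranged from 20.3 to 104 FPKM (median 81.6) at 0 h and from 0 to 2.07 FPKM (median 0.149) in the cold, a value that fell by 5.58 (SE 0.34, limma adjusted p = 3.32e-08). Several cold libraries listed it at 0, and all 12 were below the lowest 0 h library. SAUR41 (Zm00001d026308), another member of the family, ranged from 0 to 2.46 FPKM (median 0.0722) at 0 h and from 1.95 to 227 FPKM (median 57.6) in the cold, a rise of 5.15 (SE 0.72, limma adjusted p = 4.99e-05), and its groups overlapped.

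**Figure D2:**
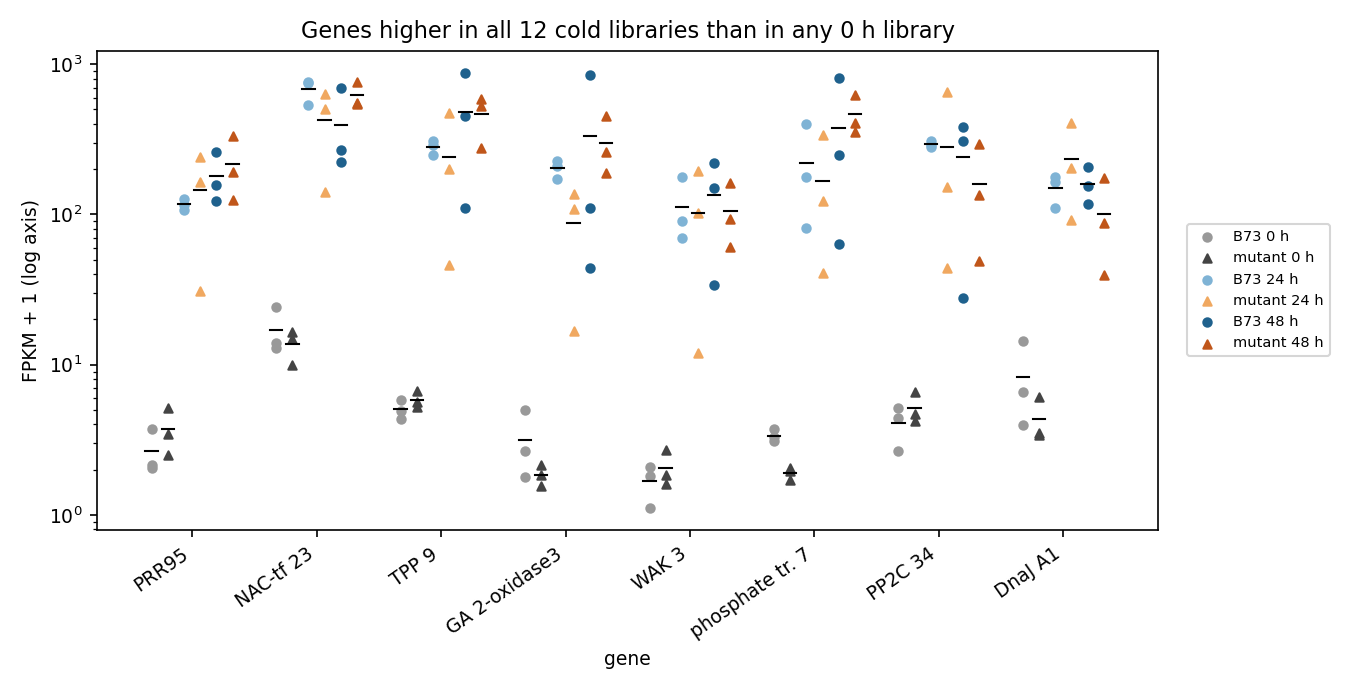
Points are FPKM + 1 (log axis) in each of the 18 libraries for 8 genes that rose, chosen for display after their values were seen; bars are group means of 3 libraries, circles B73 and triangles the mutant. For every gene shown, all 12 cold libraries lie above all 6 libraries of 0 h, with mutant 24 h replicate 2 often the lowest of the cold triangles.

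Most clock genes were not called, and those that were changed in both directions. PRR proteins are repressors that oscillate through the day. Two-component response regulator-like PRR95 (Zm00001d021291, chromosome 7, 148065548 to 148071232, minus strand) ranged from 1.05 to 4.17 FPKM (median 1.98) at 0 h and from 30.2 to 331 FPKM (median 142) in the cold, a rise of 5.58 (SE 0.38, limma adjusted p = 5.34e-08). Every cold library was above every 0 h library. A second gene of the same description (Zm00001d006212) ranged from 1.72 to 9.99 FPKM (median 3.27) at 0 h and from 9.35 to 46.3 FPKM (median 27.96) in the cold, a rise of 2.32 (SE 0.34, limma adjusted p = 7.79e-05). Protein REVEILLE 1 (Zm00001d017642), a MYB-like clock-associated factor, ranged from 2.40 to 9.08 FPKM (median 4.37) at 0 h and from 8.24 to 126 FPKM (median 57.8) in the cold, a rise of 3.15 (SE 0.50, limma adjusted p = 0.000162). Protein ELF4-LIKE 3 (Zm00001d048801), related to an evening-expressed clock component, ranged from 3.88 to 10.4 FPKM (median 9.70) at 0 h and from 0 to 2.13 FPKM (median 0.318) in the cold, a value that fell by 2.60 (SE 0.26, limma adjusted p = 1.86e-06), with no overlap. Of 35 tested clock genes 10 rose (28.6%), 2 fell (5.71%) and 23 were not called, beside 15.7% rising and 17.8% falling over all genes tested. The counts were 6 and 5 with library-total scaling and 10 and 3 with quantile normalization. Not called were circadian clock associated1 (0.66, limma adjusted p = 0.263), late hypocotyl elongation protein ortholog1 (-0.04, limma adjusted p = 0.959) and gigantea1 (0.43, limma adjusted p = 0.502).

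Of 28 CBF/DREB genes in the table, 11 passed the filter and were tested. Of these, 10 rose (90.9%) and 1 fell (9.09%), beside 15.7% and 17.8% of all genes tested. The counts were 9 and 1 with library-total scaling and 10 and 1 with quantile normalization. When each library was left out in turn 8 to 10 rose, and 8 rose without the 4 libraries with conflicting labels. Members near 0 at 0 h could pass the filter only through cold libraries, so for them a rise was favoured in advance. The 11 tested genes had a median difference of 1.80 beside -0.03 over all genes. DRE-binding protein4 (Zm00001d036003) ranged from 0.0580 to 1.16 FPKM (median 0.224) at 0 h and from 3.42 to 62.7 FPKM (median 13.3) in the cold, a rise of 3.86 (SE 0.44, limma adjusted p = 7.01e-06). AP2-EREBP-transcription factor 79 (Zm00001d031728), described as dehydration-responsive element-binding protein 1J, ranged from 0 to 0.0673 FPKM (median 0) at 0 h and from 0.562 to 48.3 FPKM (median 10.8) in the cold, a rise of 3.37 (SE 0.53, limma adjusted p = 0.000166). These were the members without overlap. AP2-EREBP-transcription factor 115 (Zm00001d021208) had the highest cold median of the 11: it ranged from 3.66 to 57.1 FPKM (median 8.44) at 0 h and from 11.6 to 227 FPKM (median 128) in the cold, a rise of 3.04 (SE 0.53, limma adjusted p = 0.000366). Factor 23 (Zm00001d021207) went from a median of 5.42 FPKM (range 2.26 to 29.5) to one of 54.2 FPKM (range 9.90 to 195), and its groups overlapped, as did those of factor 36 (Zm00001d021205), which went from a median of 0.0311 FPKM (range 0 to 1.41) to one of 6.68 FPKM (range 0.557 to 24.4). Copies of this family lie close in the gene numbering and may share reads. DRE-binding protein 1 (Zm00001d032295) was the member that fell: it ranged from 18.6 to 129 FPKM (median 55.4) at 0 h and from 2.51 to 30.5 FPKM (median 15.1) in the cold, a value that fell by 1.93 (SE 0.45, limma adjusted p = 0.00363), a call lost in B73 alone (limma adjusted p = 0.22).

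Dehydrins and late embryogenesis abundant proteins protect membranes and proteins when cells lose water. Among 16 tested genes of this list, 5 rose (31.2%) and 3 fell (18.8%), beside 15.7% and 17.8% of all genes tested. The counts were 3 and 4 with library-total scaling and 4 and 3 with quantile normalization. Without mutant 0 h replicate 1, and likewise without the 4 libraries with conflicting labels, 1 fell. A first gene described as dehydrin DHN1 (Zm00001d017547) ranged from 2.02 to 17.9 FPKM (median 4.78) at 0 h and from 12.5 to 351 FPKM (median 97.5) in the cold, a rise of 4.03 (SE 0.64, limma adjusted p = 0.000167). The gene named dehydrin1, with the same description (Zm00001d037894), ranged from 0.187 to 834 FPKM (median 18.01) at 0 h and from 0 to 174 FPKM (median 1.81) in the cold, a difference of -2.49 that was not called (SE 1.18, limma adjusted p = 0.112). Both overlapped between the groups. Low temperature-induced protein15 (Zm00001d035440) ranged from 185 to 309 FPKM (median 237) at 0 h and from 510.2 to 1814 FPKM (median 1157) in the cold, a rise of 2.13 (SE 0.26, limma adjusted p = 1.69e-05). Late embryogenesis abundant protein Lea14-A (Zm00001d009700) ranged from 55.99 to 124 FPKM (median 92.98) at 0 h and from 172 to 1165 FPKM (median 486) in the cold, a rise of 2.57 (SE 0.39, limma adjusted p = 0.000104). These 2 did not overlap. Proteolipid membrane potential regulator4 (Zm00001d028718), listed at 0 in most cold libraries, ranged from 0 to 471 FPKM (median 13) at 0 h and from 0 to 22.2 FPKM (median 0) in the cold, a value that fell by 2.96 (SE 1.04, limma adjusted p = 0.036), and its call was lost in 13 of 31 alternatives.

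Kinase cascades and calcium carry stress signals in plant cells. Of 61 tested genes of the MAP kinase cascade, which relays stress signals by successive phosphorylation, 31 rose (50.8%) and 5 fell (8.2%), with a median difference of 0.70. Over all genes tested, 15.7% rose and 17.8% fell. The counts were 22 and 14 with library-total scaling and 28 and 9 with quantile normalization. Members near 0 at 0 h, such as Zm00001d011654 (at most 0.316 FPKM) and Zm00001d021916 (at most 0.0950 FPKM), could pass the filter only through cold libraries. For them a rise was favoured in advance. Several risen members share the description kinase kinase kinase 17, and similar copies can share reads. MAP kinase1 (Zm00001d047758) had the highest FPKM of the members described: it ranged from 34.5 to 47.98 FPKM (median 38.9) at 0 h and from 127 to 1452 FPKM (median 805) in the cold, a rise of 4.03 (SE 0.40, limma adjusted p = 1.77e-06). Mitogen-activated protein kinase kinase kinase 18 (Zm00001d047728) ranged from 0.580 to 5.52 FPKM (median 1.47) at 0 h and from 12.4 to 325 FPKM (median 81.2) in the cold, a rise of 4.65 (SE 0.57, limma adjusted p = 1.73e-05). Kinase kinase kinase 17 (Zm00001d038884) ranged from 0.0579 to 1.01 FPKM (median 0.570) at 0 h and from 6.09 to 123 FPKM (median 38.7) in the cold, a rise of 4.59 (SE 0.47, limma adjusted p = 2.3e-06). All 3 were without overlap. Calcium sensors and calcium-dependent kinases read the calcium signal, and 60 of 181 tested rose (33.1%), 19 fell (10.5%) and 102 were not called. The counts of rises and falls were 43 and 37 with library-total scaling and 55 and 22 with quantile normalization. Calcium-binding protein CML31 (Zm00001d042056) ranged from 1.98 to 22.1 FPKM (median 4.45) at 0 h and from 10.4 to 312 FPKM (median 128) in the cold, a rise of 4.17 (SE 0.57, limma adjusted p = 4.27e-05), and overlapped. CBL-interacting protein kinase 2 (Zm00001d007167, chromosome 2, 223667838 to 223669229, minus strand), a partner of calcineurin B-like sensors, ranged from 10.1 to 28.8 FPKM (median 16.1) at 0 h and from 0 to 2.81 FPKM (median 0.859) in the cold, a value that fell by 3.16 (SE 0.22, limma adjusted p = 6.4e-08), with no overlap.

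WRKY and NAC factors, plant transcription factor families active in stress and senescence, had 27 of 83 and 25 of 77 tested genes rising, and 7 and 8 falling. Rises made up 32.5% of each list and falls 8.43% and 10.4%, beside 15.7% and 17.8% of all genes tested. With library-total scaling the counts were 20 and 11 for WRKY and 17 and 12 for NAC, and with quantile normalization 27 and 8, and 25 and 6. Without B73 0 h replicate 2, 4 WRKY genes fell, and without mutant 0 h replicate 1, 5 NAC genes fell. WRKY-transcription factor 114 (Zm00001d036726) ranged from 0.458 to 1.45 FPKM (median 0.652) at 0 h and from 16.3 to 362 FPKM (median 86.5) in the cold, a rise of 5.42 (SE 0.51, limma adjusted p = 9.68e-07). NAC-transcription factor 23 (Zm00001d012527) ranged from 8.91 to 23.2 FPKM (median 13.4) at 0 h and from 139.6 to 765 FPKM (median 551) in the cold, a rise of 5.0 (SE 0.35, limma adjusted p = 6.4e-08). NAC-transcription factor43 (Zm00001d030023, chromosome 1, 100385980 to 100387952, plus strand) ranged from 0.0597 to 1.06 FPKM (median 0.390) at 0 h and from 4.95 to 209 FPKM (median 105) in the cold, a rise of 5.50 (SE 0.69, limma adjusted p = 1.92e-05). In all 3 the cold and 0 h libraries did not overlap. Wall-associated receptor kinase 3 (Zm00001d007477, chromosome 2, 232638292 to 232640352, minus strand), of a family that links the cell wall to the cytoplasm, ranged from 0.113 to 1.71 FPKM (median 0.837) at 0 h and from 10.9 to 219 FPKM (median 96.4) in the cold, a rise of 5.64 (SE 0.49, limma adjusted p = 4.8e-07), also without overlap. A 5.8S ribosomal RNA gene on an unplaced contig (ENSRNA049479918) ranged from 0 to 10.6 FPKM (median 3.70) at 0 h and from 116 to 830.1 FPKM (median 227) in the cold, a rise of 6.13 (SE 0.45, limma adjusted p = 7.27e-08); ribosomal RNA is repeated in the genome, and its level depends on how the RNA was selected.

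The other genes with the strongest shared falls had various roles. They were chosen among genes without overlap, so the lack of overlap stated for them was fixed by that choice. Protein GLUTAMINE DUMPER 1 (Zm00001d015470, chromosome 5, 91982760 to 91983347, minus strand), known in Arabidopsis for amino acid export, ranged from 11.8 to 43.2 FPKM (median 31.9) at 0 h and from 0 to 5.58 FPKM (median 0.230) in the cold, a value that fell by 4.07 (SE 0.42, limma adjusted p = 2.66e-06). Peroxidase 52 (Zm00001d046184, chromosome 9, 70231085 to 70232642, plus strand), a class III peroxidase, ranged from 109 to 347 FPKM (median 179.9) at 0 h and from 2.26 to 27.9 FPKM (median 6.79) in the cold, a value that fell by 4.50 (SE 0.41, limma adjusted p = 7.07e-07). Metalloendoproteinase 1-MMP (Zm00001d029892, chromosome 1, 92733943 to 92735043, plus strand) ranged from 15.6 to 28.6 FPKM (median 20.3) at 0 h and from 0 to 4.42 FPKM (median 1.09) in the cold, a value that fell by 3.28 (SE 0.27, limma adjusted p = 3.49e-07). No cold library reached the lowest 0 h library for any of them. F-box/kelch-repeat protein At2g44130 (Zm00001d049016, chromosome 4, 12584214 to 12585332, minus strand), of a family of substrate receptors of ubiquitin ligases, ranged from 188 to 539 FPKM (median 284) at 0 h and from 3.81 to 51.3 FPKM (median 24.1) in the cold, a value that fell by 3.65 (SE 0.32, limma adjusted p = 4.9e-07). Chaperone protein dnaJ 11 (Zm00001d028404, chromosome 1, 33738878 to 33739350, minus strand) ranged from 7.91 to 18.4 FPKM (median 11.8) at 0 h and from 0 to 1.70 FPKM (median 0.369) in the cold, a value that fell by 3.15 (SE 0.23, limma adjusted p = 6.4e-08). These too were without overlap. Sialyltransferase-like protein 1 (Zm00001d042786, chromosome 3, 179531759 to 179532934, minus strand) ranged from 24.9 to 151 FPKM (median 58.1) at 0 h and from 1.25 to 18.9 FPKM (median 4.03) in the cold, a value that fell by 3.29 (SE 0.46, limma adjusted p = 5.31e-05). Solute carrier family 25 member 44 (Zm00001d027875, chromosome 1, 16140364 to 16141359, plus strand) ranged from 12.7 to 27.4 FPKM (median 21.6) at 0 h and from 0.663 to 6.75 FPKM (median 1.04) in the cold, a value that fell by 3.25 (SE 0.28, limma adjusted p = 4.63e-07). GNAT-transcription factor 6 (Zm00001d034143, chromosome 1, 285008208 to 285010916, plus strand), related to the Arabidopsis growth regulator HOOKLESS1, ranged from 12.1 to 37.99 FPKM (median 30.6) at 0 h and from 0.383 to 3.51 FPKM (median 1.5) in the cold, a value that fell by 3.35 (SE 0.29, limma adjusted p = 4.9e-07). All of these also kept every cold library below every 0 h library. A DnaJ gene of another subfamily, DnaJ homolog subfamily A member 1 (Zm00001d032084), ranged from 2.38 to 13.3 FPKM (median 4.03) at 0 h and from 38.5 to 407 FPKM (median 158) in the cold, a rise of 4.67 (SE 0.39, limma adjusted p = 2.99e-07). Of 227 tested heat shock factors and chaperones, 22 rose (9.69%) and 42 fell (18.5%), beside 15.7% and 17.8% of all genes tested. The counts were 11 and 91 with library-total scaling and 24 and 45 with quantile normalization.

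**Figure D3:**
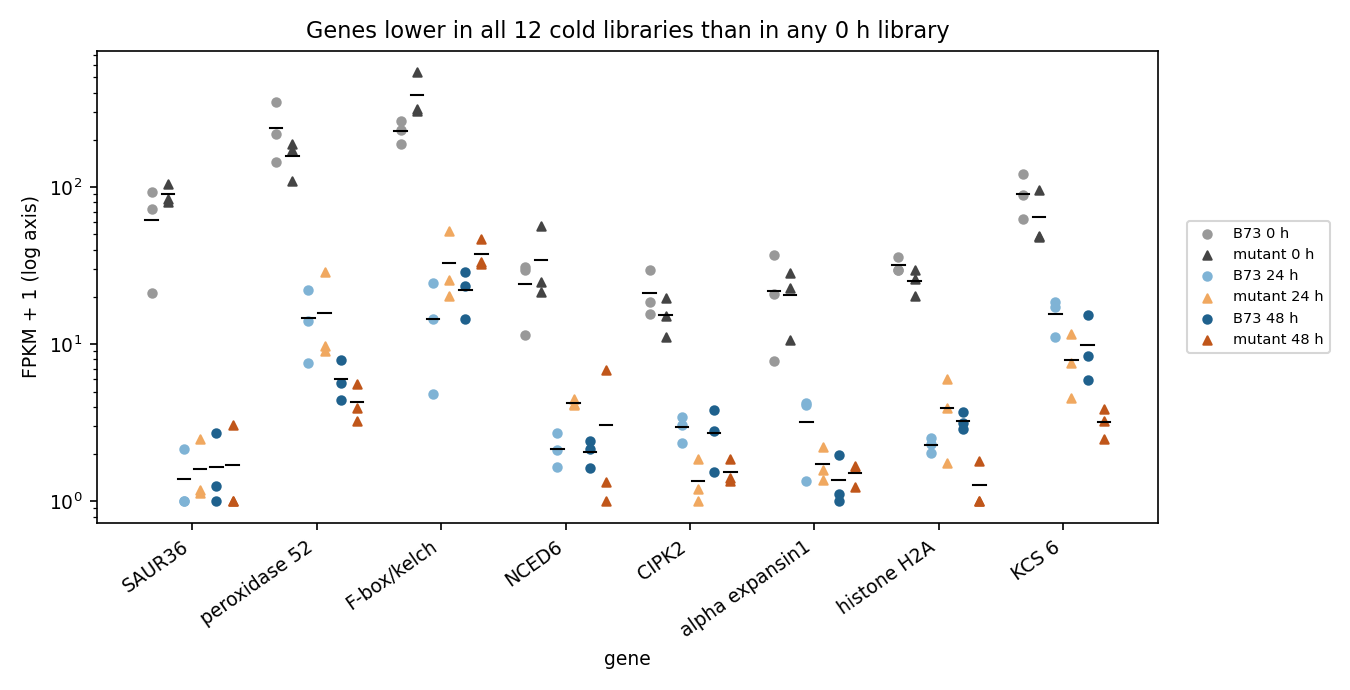
Points are FPKM + 1 (log axis) in each of the 18 libraries for 8 genes that fell, chosen for display after their values were seen; bars are group means of 3 libraries, circles B73 and triangles the mutant. For each gene shown, all 12 cold libraries lie below all 6 libraries of 0 h, and several libraries of SAUR36 lie at the axis floor of 1 (0 FPKM).

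Among growth-related lists, histones had more falls than rises. Of 68 tested histone genes, which package DNA, 23 fell (33.8%) and 5 rose (7.35%), with a median difference of -0.43. Over all genes tested, 17.8% fell and 15.7% rose. The counts were 34 and 3 with library-total scaling and 27 and 6 with quantile normalization. Histone H2A (Zm00001d021300, chromosome 7, 148227448 to 148227942, minus strand) ranged from 19.2 to 34.99 FPKM (median 28.5) at 0 h and from 0 to 5.05 FPKM (median 1.42) in the cold, a value that fell by 3.57 (SE 0.31, limma adjusted p = 4.64e-07), with no overlap. A Histone H1 gene (Zm00001d045478) ranged from 37.7 to 138 FPKM (median 89.8) at 0 h and from 0.700 to 52.1 FPKM (median 2.84) in the cold, a value that fell by 3.79 (SE 0.73, limma adjusted p = 0.000847), and its groups overlapped. A histone H4 gene (Zm00001d026015) stood on the other side: it ranged from 0.186 to 2.21 FPKM (median 0.636) at 0 h and from 1.97 to 778 FPKM (median 261) in the cold, a rise of 6.64 (SE 0.82, limma adjusted p = 1.84e-05). Histone genes are near-identical copies, so reads may have been split between them.

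Expansins loosen cell walls during growth. Of 45 tested genes for wall loosening and xyloglucan enzymes, 15 fell (33.3%) and 6 rose (13.3%), while the median difference over all 45 was 0.12. The counts were 19 and 5 with library-total scaling and 16 and 8 with quantile normalization. Without mutant 24 h replicate 2, 10 rose. Without the 4 libraries with conflicting labels, 10 fell. Alpha expansin1 (Zm00001d043047) ranged from 6.80 to 35.97 FPKM (median 20.7) at 0 h and from 0 to 3.22 FPKM (median 0.609) in the cold, a value that fell by 3.41 (SE 0.35, limma adjusted p = 2.69e-06), with no overlap. A xyloglucan endotransglucosylase/hydrolase gene (Zm00001d002410) ranged from 0.238 to 7.19 FPKM (median 0.718) at 0 h and from 6.34 to 627 FPKM (median 191) in the cold, a rise of 6.08 (SE 0.81, limma adjusted p = 3.64e-05), with overlap. Of 31 aquaporins, which conduct water through membranes, 8 fell (25.8%) and 5 rose (16.1%), beside 17.8% and 15.7% of all genes tested. The counts were 14 and 4 with library-total scaling and 11 and 5 with quantile normalization. Plasma membrane intrinsic protein2 (Zm00001d051174) ranged from 19.1 to 75.5 FPKM (median 42.6) at 0 h and from 1.69 to 21.1 FPKM (median 5.44) in the cold, a value that fell by 2.48 (SE 0.42, limma adjusted p = 0.000301). Of 59 flavonoid and anthocyanin genes, 13 fell (22%) and 4 rose (6.78%), and 2 rose without mutant 0 h replicate 1. The counts were 24 and 5 with library-total scaling and 13 and 5 with quantile normalization. Flavonoid 3',5'-hydroxylase 1 (Zm00001d047424) ranged from 3.66 to 14.5 FPKM (median 7.68) at 0 h and from 0.0703 to 2.52 FPKM (median 1.48) in the cold, a value that fell by 2.01 (SE 0.33, limma adjusted p = 0.000204), with no overlap.

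Ribosomal protein genes were called in small numbers. Of 276 cytosolic ribosomal protein genes 27 fell and 7 rose (63 and 3 with library-total scaling, 30 and 4 with quantile normalization), beside 17.8% and 15.7% of all genes tested. Without B73 0 h replicate 2, and likewise without the 4 libraries with conflicting labels, 16 of them fell. Of 82 plastid ribosome genes 6 fell and 2 rose (16 and 2, then 10 and 4, under those scalings), and 3 fell and 1 rose without B73 0 h replicate 1, 3 fell without the 4 libraries with conflicting labels, and 4 rose without B73 24 h replicate 1. 40S ribosomal protein S4 (Zm00001d020209) ranged from 4.63 to 9.62 FPKM (median 6.61) at 0 h and from 1.08 to 3.39 FPKM (median 1.94) in the cold, a value that fell by 1.45 (SE 0.19, limma adjusted p = 3.11e-05), with no overlap. A gene described as 60S ribosomal protein L10 (Zm00001d013777) went the other way: it ranged from 17.2 to 52.6 FPKM (median 35.1) at 0 h and from 74.8 to 638 FPKM (median 166) in the cold, a rise of 2.63 (SE 0.51, limma adjusted p = 0.000836). Ribosomal proteins come from near-identical gene copies, so single copies are uncertain.

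Photosystem and light-harvesting genes were called less often than all genes tested under the deposited scaling. Of 95 such genes 13 rose (13.7%) and 11 fell (11.6%), beside 15.7% and 17.8% of all genes tested. The counts were 13 and 21 with library-total scaling and 13 and 23 with quantile normalization. A copy of psbA, for the photosystem II protein D1, on an unplaced contig (B73V4_ctg121) rather than on the plastid genome of the table (Zm00001d000417), ranged from 5.64 to 14.9 FPKM (median 7.26) at 0 h and from 53.3 to 587 FPKM (median 124) in the cold, a rise of 4.05 (SE 0.45, limma adjusted p = 5.58e-06). Copies of this sequence on the contig and on the plastid genome can share reads, and the share of plastid reads in a library was 0.000841 to 0.00177% at 0 h and 0.00366 to 0.192% in the cold. The part of that share in the result was not tested. Of 33 chlorophyll synthesis genes, 8 fell (24.2%) and 4 rose (12.1%), or 13 and 3, then 10 and 4, under those scalings. Magnesium-chelatase subunit ChlH (Zm00001d001850) was among those that rose: it ranged from 0.0941 to 0.936 FPKM (median 0.572) at 0 h and from 4.38 to 60.3 FPKM (median 12.5) in the cold, a rise of 3.40 (SE 0.50, limma adjusted p = 8.37e-05), with no overlap.

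Membrane and storage lists were mixed. Monogalactosyldiacylglycerol synthases make the main lipid of chloroplast membranes. Probable monogalactosyldiacylglycerol synthase 3 (Zm00001d018406) ranged from 5.10 to 7.89 FPKM (median 5.64) at 0 h and from 14.4 to 95.9 FPKM (median 45.3) in the cold, a rise of 2.59 (SE 0.32, limma adjusted p = 1.58e-05), with no overlap. Stearoyl-acyl-carrier-protein desaturase10 (Zm00001d024273), of a family that puts the first double bond into fatty acids, ranged from 1.43 to 80.4 FPKM (median 4.40) at 0 h and from 0 to 5.64 FPKM (median 0.425) in the cold, a value that fell by 2.06 (SE 0.59, limma adjusted p = 0.0132), and overlapped. Of 76 lipid genes 14 rose (18.4%) and 9 fell (11.8%), beside 15.7% and 17.8% of all genes tested. The counts were 7 and 21 with library-total scaling and 11 and 11 with quantile normalization. Without B73 0 h replicate 1, 8 rose, and without B73 0 h replicate 2, 4 fell. Of 125 starch and sucrose genes 25 rose (20%) and 15 fell (12%). The counts were 15 and 33 with library-total scaling and 23 and 23 with quantile normalization, and 9 fell without B73 0 h replicate 2. Bidirectional sugar transporter SWEET2b (Zm00001d043735) ranged from 12.8 to 48.6 FPKM (median 24.4) at 0 h and from 43.4 to 1183 FPKM (median 424) in the cold, a rise of 3.93 (SE 0.54, limma adjusted p = 4.37e-05), and overlapped.

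In the redox and detoxification lists the share of falls was near that of all genes tested (17.8%). Of 108 antioxidant genes 19 fell (17.6%) and 7 rose (6.48%, beside 15.7% of all genes; 34 and 5 with library-total scaling, 24 and 6 with quantile normalization), and 11 fell without B73 0 h replicate 2. Thioredoxin-like 1-2 (Zm00001d047555) ranged from 14.5 to 79.5 FPKM (median 26.5) at 0 h and from 0.620 to 10.6 FPKM (median 2.26) in the cold, a value that fell by 2.90 (SE 0.42, limma adjusted p = 7.15e-05), with no overlap. Of 45 glutathione transferases 8 fell (17.8%) and 5 rose (11.1%; 19 and 4, then 14 and 7), and 9 rose without mutant 24 h replicate 2. Glutathione transferase19 (Zm00001d036951) ranged from 63.2 to 700.0 FPKM (median 251) at 0 h and from 2.92 to 119.8 FPKM (median 19.4) in the cold, a value that fell by 3.11 (SE 0.66, limma adjusted p = 0.00168), and overlapped.

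Phenylpropanoid and lignin genes included 22 of 101 that fell (21.8%) and 13 that rose (12.9%), beside 17.8% and 15.7% of all genes tested. With library-total scaling the counts were 36 and 12, and with quantile normalization 24 and 15. Phenylalanine ammonia lyase5 (Zm00001d051163), of the enzyme family that opens the pathway, ranged from 10.5 to 32.3 FPKM (median 16.9) at 0 h and from 0.564 to 11.3 FPKM (median 1.43) in the cold, a value that fell by 2.60 (SE 0.41, limma adjusted p = 0.000167), and overlapped. Of 54 class III peroxidases 9 rose (16.7%) and 7 fell (13%), but 8 and 14 with library-total scaling and 12 and 9 with quantile normalization. Of 26 cellulose synthase genes 5 rose (19.2%) and 2 fell (7.69%), but 4 and 6, then 5 and 6, under those scalings. Without B73 24 h replicate 3, 4 of them fell. Of 147 cell cycle genes 24 rose (16.3%) and 25 fell (17%), shares near the 15.7% and 17.8% of all genes tested (10 and 39, then 25 and 22). RNA helicases and glycine-rich RNA-binding proteins had 15 of 106 rising (14.2%) and 13 falling (12.3%), or 5 and 23, then 14 and 13, under those scalings. Of them, 7 rose without mutant 0 h replicate 1 and 8 fell without B73 0 h replicate 2. Without the 4 libraries with conflicting labels, 9 rose. The RNA helicase DEAH5 (Zm00001d031581) ranged from 4.48 to 6.16 FPKM (median 5.22) at 0 h and from 14.6 to 218 FPKM (median 87.2) in the cold, a rise of 3.82 (SE 0.46, limma adjusted p = 1.53e-05), with no overlap. Ubiquitin ligases of the ATL and U-box kind had 41 of 129 falling (31.8%) and 28 rising (21.7%), or 48 and 21, then 37 and 31, under those scalings. RING-H2 finger protein ATL43 (Zm00001d053433) ranged from 12.1 to 38.3 FPKM (median 20.8) at 0 h and from 0 to 8.52 FPKM (median 1.73) in the cold, a value that fell by 2.91 (SE 0.40, limma adjusted p = 4.11e-05). U-box domain-containing protein 27 (Zm00001d016719) ranged from 2.70 to 14.5 FPKM (median 4.85) at 0 h and from 21.2 to 338 FPKM (median 129) in the cold, a rise of 4.01 (SE 0.54, limma adjusted p = 3.9e-05). Neither ligase overlapped between cold and 0 h.

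**Figure D4:**
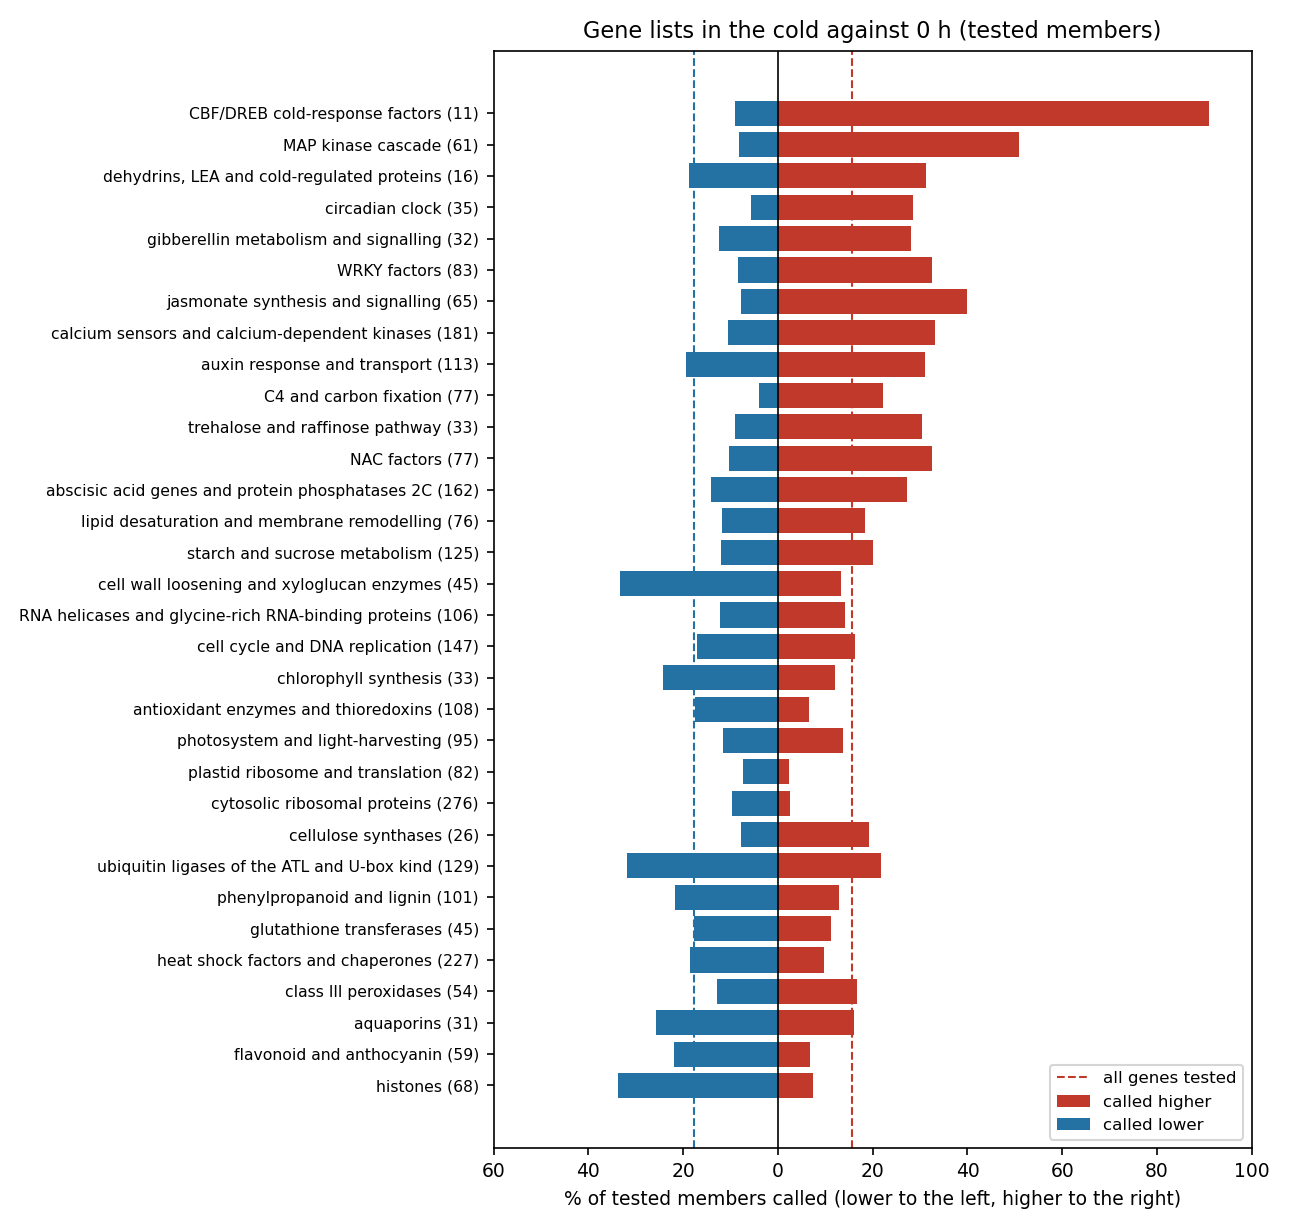
Bars give the share of tested members of each gene list called higher (red, to the right) or lower (blue, to the left) in the cold under the deposited scaling, with the number tested in parentheses and lists ordered by median difference. Dashed lines mark the shares over all genes tested, 15.7% and 17.8%. CBF/DREB factors reach 90.9% higher and histones 33.8% lower. Only 11 of 28 CBF/DREB genes were tested, and members near 0 at 0 h could pass the filter only through cold libraries.

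Cell type markers were read for the makeup of the leaf samples. Their counts stand beside 15.7% rising and 17.8% falling over all genes tested. Mesophyll markers (9 of 9 detected) summed to 4686 to 11930 FPKM (median 6264) at 0 h and 3727 to 18550 FPKM (median 10630) in the cold, with 0 of 9 called (2 rose without mutant 24 h replicate 2). Bundle sheath markers summed to 4784 to 21480 FPKM (median 9072) and 4015 to 29700 FPKM (median 16220), with 1 of 13 tested rising (2 without that library). Root markers stayed near 0 (2.03 to 5.15 FPKM, median 4.09, and 0.864 to 9.29 FPKM, median 2.67, with 9 of 16 at 0 in every library). Epidermis and cuticle markers summed to 2100 to 4036 FPKM (median 3242) at 0 h and 854 to 4275 FPKM (median 1330) in the cold, so that the median was lower while the ranges overlapped, with 20 of 90 tested falling and 11 rising (34 and 10 with library-total scaling, 26 and 13 with quantile normalization). 3-ketoacyl-CoA synthase 6 (Zm00001d009354), of a family that elongates the fatty acids of cuticular wax, ranged from 47.2 to 121 FPKM (median 74.5) at 0 h and from 1.49 to 17.5 FPKM (median 7.04) in the cold, a value that fell by 3.27 (SE 0.33, limma adjusted p = 2.25e-06), with no overlap. In this list 5 members lay without overlap above 0 h and 3 below it, beside 6.11% of all genes tested in both directions together. Vasculature markers summed to 325 to 462 FPKM (median 390.3) and 302 to 1814 FPKM (median 379), with 5 of 15 falling and 2 rising. Without B73 0 h replicate 1, 3 of them fell and 1 rose. Meristem and leaf primordium markers summed to 376 to 1001 FPKM (median 875) and 187 to 2366 FPKM (median 614), with 10 of 27 rising and 3 falling (6 and 6 with library-total scaling). Growth-regulating factor 3 (Zm00001d026240), a transcription factor of leaf growth, ranged from 0.667 to 2.60 FPKM (median 1.04) at 0 h and from 3.43 to 53.9 FPKM (median 18.4) in the cold, a rise of 3.06 (SE 0.44, limma adjusted p = 6.87e-05), with no overlap. Senescence markers summed to 1472 to 3009 FPKM (median 1842) and 1006 to 2572 FPKM (median 1370), with 17 of 57 tested falling and 0 rising under any of the 3 scalings. Protein STAY-GREEN (Zm00001d006211), of chlorophyll breakdown, ranged from 0.668 to 223 FPKM (median 11.9) at 0 h and from 0 to 11.9 FPKM (median 0.592) in the cold, a value that fell by 2.64 (SE 0.77, limma adjusted p = 0.0138). The part of these markers in the results above was not tested.

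Among called genes with a name or description, the largest rise in mean FPKM was in a gene described as NAD(P)H-quinone oxidoreductase subunit 6 (Zm00001d019605), a chloroplast electron-transport subunit. Its mean went from 208.5 FPKM at 0 h to 3284 FPKM in the cold. It ranged from 98.3 to 258 FPKM (median 234) at 0 h and from 496 to 9177 FPKM (median 2196) in the cold, a rise of 3.37 (SE 0.63, limma adjusted p = 0.000621). Whether this gene shares reads with genes of the plastid genome was not tested. S-adenosyl methionine decarboxylase2 (Zm00001d003157), of polyamine synthesis, had the next largest by means, and it ranged from 412 to 704 FPKM (median 488) at 0 h and from 677 to 7006 FPKM (median 2660) in the cold, a rise of 2.33 (SE 0.43, limma adjusted p = 0.000595). AAA-ATPase ASD (Zm00001d003209) ranged from 24.4 to 146 FPKM (median 85.7) at 0 h and from 169 to 6038 FPKM (median 2099) in the cold, a rise of 4.75 (SE 0.61, limma adjusted p = 2.57e-05). The first and the last did not overlap. NDR1/HIN1-like protein 2 (Zm00001d026662), of a family named for disease resistance, ranged from 113 to 346 FPKM (median 177) at 0 h and from 268 to 7518 FPKM (median 1250) in the cold, a rise of 2.90 (SE 0.60, limma adjusted p = 0.0014). Of the 4 largest falls in mean FPKM by the same measure, 3 were in genes known as defence proteins. Pathogenesis related protein5 (Zm00001d031158) ranged from 111 to 3677 FPKM (median 1084) at 0 h and from 13.98 to 917 FPKM (median 103) in the cold, a value that fell by 2.66 (SE 0.81, limma adjusted p = 0.0181). Chitinase chem5 (Zm00001d043988) ranged from 36.3 to 2261 FPKM (median 1015) at 0 h and from 3.80 to 515 FPKM (median 45.2) in the cold, a value that fell by 3.42 (SE 1.00, limma adjusted p = 0.0143). Lichenase-2 (Zm00001d038049), a glucan-cleaving enzyme, ranged from 53.5 to 1892 FPKM (median 1131) at 0 h and from 5.29 to 579 FPKM (median 83.5) in the cold, a value that fell by 3.17 (SE 0.79, limma adjusted p = 0.00531). Each of these 3 overlapped between cold and 0 h, and the 0 h libraries themselves spread widely. Non-specific lipid-transfer protein 2 (Zm00001d013907) was the other: it ranged from 346 to 2725 FPKM (median 769.6) at 0 h and from 41.8 to 627 FPKM (median 211) in the cold, a value that fell by 2.18 (SE 0.57, limma adjusted p = 0.00709). Pathogenesis related protein5 was no longer called without B73 0 h replicate 1, and chitinase chem5 without the 4 libraries with conflicting labels.

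The pooled comparison hides differences between the times. Between 24 and 48 h, 3256 genes were higher at 48 h (14.1% of the genes tested) and 1701 lower (7.35%). With library-total scaling the balance turned, with 1865 higher and 3869 lower, and with quantile normalization it was 2582 and 1840. Of the 3630 genes that rose in the cold, 1123 were higher at 48 h than at 24 h, 78 were lower and 2429 were not called. Of the 4114 that fell, 596 were lower still at 48 h, 89 were higher and 3429 were not called. The count of 4957 fell to 2131 without the 4 libraries with conflicting labels and to 3989 without mutant 24 h replicate 2. In B73 alone it was 352, and in the mutant alone 4002, so most of the calls were not seen in B73 by itself.

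Thaumatin-like protein 1 (Zm00001d047938) had group means (± SD, n = 3) of 2.21 ± 1.44, 4.21 ± 2.31 and 67.7 ± 28.2 FPKM in B73 and 1.22 ± 0.809, 1.78 ± 1.53 and 140.2 ± 66.6 FPKM in the mutant at 0, 24 and 48 h, and a 48 h less 24 h difference of 4.72 (SE 0.42, limma adjusted p = 2.64e-06). It appeared late: its 24 h libraries lay near those of 0 h. Its pooled call was lost in 18 of 31 alternatives. AP2-EREBP-transcription factor 111 (Zm00001d053195), an ethylene-response type factor, had means of 0.428 ± 0.271, 1.84 ± 1.12 and 35.6 ± 7.07 FPKM in B73 and 1.01 ± 0.283, 2.61 ± 0.502 and 182 ± 70.8 FPKM in the mutant and a difference of 4.67 (SE 0.33, limma adjusted p = 4.7e-07). Cytochrome P450 81Q32 (Zm00001d012322), an oxygenase, had means of 1.86 ± 2.42, 43.6 ± 31.9 and 334 ± 142 FPKM in B73 and 40.2 ± 63.9, 15.9 ± 9.29 and 826 ± 431 FPKM in the mutant and a difference of 4.38 (SE 0.84, limma adjusted p = 0.00152). Other genes peaked at 24 h. Cytochrome P450 94C1 (Zm00001d052530), of a family that oxidises the active jasmonate in Arabidopsis, had means of 4.25 ± 0.919, 171 ± 128 and 13.6 ± 10.4 FPKM in B73 and 2.99 ± 1.16, 35.02 ± 17.2 and 11.3 ± 8.52 FPKM in the mutant and a difference of -2.66 (SE 0.53, limma adjusted p = 0.00192). S-type anion channel SLAH2 (Zm00001d011393) had means of 0.386 ± 0.340, 18.3 ± 1.55 and 1.57 ± 1.29 FPKM in B73 and 0.227 ± 0.122, 6.79 ± 3.45 and 1.61 ± 1.05 FPKM in the mutant and a difference of -2.28 (SE 0.33, limma adjusted p = 0.000178). NAC-transcription factor 60 (Zm00001d013003) had means of 5.89 ± 4.04, 248 ± 207 and 14.9 ± 10.7 FPKM in B73 and 13.6 ± 10.9, 61.9 ± 21.4 and 34.5 ± 13.5 FPKM in the mutant and a difference of -2.27 (SE 0.62, limma adjusted p = 0.0155).

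**Figure D5:**
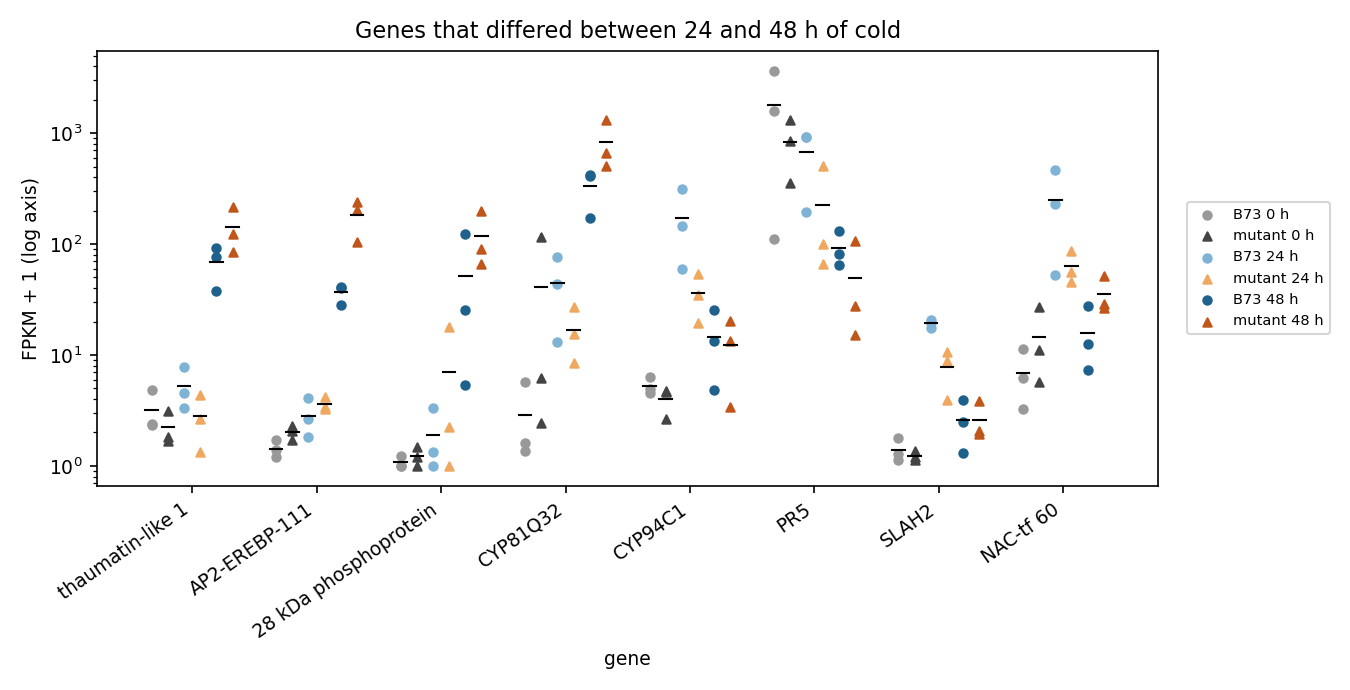
Points are FPKM + 1 (log axis) in each of the 18 libraries for the 8 named genes that differed most between 24 and 48 h of cold; bars are group means of 3 libraries, circles B73 and triangles the mutant. The 4 genes on the left are higher at 48 h than at 24 h and the 4 on the right lower, in both genotypes.

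Few genes were called for a difference between the genotypes in their response. The interaction of genotype and cold was called for 10 genes (0.0432% of those tested, with 638 at an unadjusted p under 0.05). In each of the 10 the cold difference was lower in the mutant than in B73. Several of them, such as Villin-2 (mean 4.73 FPKM in the mutant at 0 h), were at or near 0 in every other group. They passed the filter only through the mutant 0 h libraries, so for them this direction was favoured in advance. That direction did not hold in every alternative: with array weights 108 calls were higher and 142 lower in the mutant, and with 48 h only 4 were higher and 1 lower. With limma at a pseudocount of 0.1, 0 genes were called (573 at an unadjusted p under 0.05, and 3 with limma-voom on recovered reads). With no filter 34 were called, 3 of them higher in the mutant. Without B73 0 h replicate 1, and likewise without replicate 2, 1 gene was called. A missed call does not show that the genotypes respond alike. NAD(P)H-quinone oxidoreductase subunit L (Zm00001d005741) was listed at 0 in all B73 libraries, while the mutant had means of 40 ± 23.8 FPKM at 0 h and 0.617 ± 0.645 FPKM at 24 h (SD, n = 3) and 0 at 48 h. Its mutant less B73 difference was -4.80 (SE 0.52, limma adjusted p = 0.000838). Homeobox-transcription factor 41 (Zm00001d017422) had means of 0.407 ± 0.391, 0.180 ± 0.159 and 0.0199 ± 0.0344 FPKM in B73 and 22.5 ± 16.5, 0 ± 0 and 0.0661 ± 0.0579 FPKM in the mutant and a difference of -3.72 (SE 0.62, limma adjusted p = 0.0367). In the other 8 genes the difference lay between -2.77 and -1.44. The call of the subunit L gene in the pooled comparison was lost without the 4 libraries with conflicting labels.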

How the data were processed

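RNA sequencing of maize leaves gave 18 libraries, 3 in each of 6 groups of genotype and time. The submitters' processing notes name DESeq2 1.20.0, featureCounts 1.5.0-p3, HISAT2 2.0.5 and fastp; their settings, the strand rule and the build were not given in the sources used here. The authors deposited FPKM values for 50118 genes, which were used for every test. Their library scale is not the plain total of reads: it was 0.672 to 1.50 times that total. In each library 100% of the values stepped in whole reads within 0.01, from which a depth of 14795794 to 19070464 reads per library was read.

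A gene had to reach 1 FPKM in 3 or more libraries to be tested, as log2(FPKM + 1) with a pseudocount of 1, in limma 3.58.1 (R 4.3.3) with genotype as a covariate. P-values were adjusted by Benjamini-Hochberg over all 23141 genes tested, at a threshold of 0.05. Separate fits compared 48 with 24 h and tested the interaction of genotype and cold. Only the fit of cold against 0 h was run on simulated counts, with a single dispersion and no difference between times. It therefore does not check the other fits or the spread of these libraries. Figures were drawn with matplotlib 3.10.9.

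Members and gene lists were chosen with earlier results of these data known. The genes described were the 12 risen and 12 fallen genes with the largest change in their weakest cold group, without overlap and with 5 FPKM or more on average in whichever condition was higher. Added to these were the 2 largest changes in the majority direction of each list with 1 the other way, the 4 largest rises and falls in FPKM, and the largest differences between times (4 each way) and genotypes (3 each way). Further list members, and the genes in the figures, were picked after their values were seen. Gene names come from the table; 365 identifiers, of organelle genes, matched the reference table. Alternatives covered scaling, filter, pseudocount, limma-voom, a model of 6 group means, array weights, a replicate block, single genotypes and times, and leaving out libraries. List counts under quantile normalization and with libraries left out were added after seeing the data. Same-numbered libraries did not deviate together (mean r 0.026 over 45 pairs, 14 above 0.1).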

Additional observations from a re-analysis of the deposited data

Results flagged for a closer look

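In 7 of the 134 named genes, 1 of the 6 libraries of 0 h stood apart from the others. The gap to the nearest library over the group's range is given, and chance alone marks about 1 in 20 groups. SAUR36 had a gap of 0.769, with B73 0 h replicate 3 at 20.3 FPKM and a median of 83.1 FPKM in the others. AP2-EREBP-transcription factor 79 had a gap of 1, with mutant 0 h replicate 3 at 0.0673 FPKM and the others listed at 0. ATL44 had a gap of 0.67, with mutant 0 h replicate 1 at 10.1 FPKM against 12.9 FPKM. Yabby15, with a gap of 0.633, stood at 0.124 FPKM in mutant 0 h replicate 3 against 0.0567 FPKM. Mutant 0 h replicate 2 was the library that stood apart in 3 genes. Calcium-binding protein CML31 had a gap of 0.66 (22.2 FPKM against 4.34 FPKM), stearoyl-acyl-carrier-protein desaturase10 one of 0.637 (80.4 FPKM against 2.62 FPKM) and cytochrome P450 81Q32 one of 0.658 (114 FPKM against 1.42 FPKM).

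The change in the cold differed between genotypes by -4.80 for NAD(P)H-quinone oxidoreductase subunit L and by -3.72 for homeobox-transcription factor 41 (mutant less B73, log2 scale, interaction term). Between times, the 48 h less 24 h difference was 4.72 for thaumatin-like protein 1, 4.67 for AP2-EREBP-transcription factor 111, 4.45 for 28 kDa heat- and acid-stable phosphoprotein and 4.38 for cytochrome P450 81Q32. It was -2.66 for cytochrome P450 94C1, -2.35 for pathogenesis related protein5, -2.28 for S-type anion channel SLAH2 and -2.27 for NAC-transcription factor 60.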

How the results depend on the processing

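The 7744 calls between cold and 0 h became 11995 with array weights, 2875 in B73 alone and 1866 in the mutant alone. It was 7636 with limma-voom on recovered reads. Single-genotype fits have fewer samples. Leaving out each library in turn gave 6182 to 9107 calls, 6097 to 8772 for the 7545 genes with the same direction in all 4 cold groups, 3511 to 5820 for the 4957 calls between 48 and 24 h, and 1 to 13 for the 10 interaction calls. The 4957 calls became 2131 without the 4 libraries with conflicting labels, 352 in B73 alone and 4002 in the mutant alone. The 10 interaction calls became 0 with a pseudocount of 0.1, 34 with no filter, 4 with quantile normalization, 3 with limma-voom, 250 with array weights, 6 with 24 h only and 5 with 48 h only. Where no reason is given, the cause was not tested. A replicate block, by a number that does not pair the samples, gave 7414, 7264, 4856 and 7 calls. Of 134 named genes, 71 kept their call in all alternatives and 63 lost it in at least 1, for 47 of them in single-genotype or single-time fits alone; 0 reversed. Low counts limit genes near 1 FPKM.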

Other observations

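Transcription factor families were grouped by the names in the table after values were seen, so their counts are a description. Among all genes tested, 15.7% rose and 17.8% fell. Of 103 AP2-EREBP genes, which include the ethylene response factors, 42 rose and 8 fell (32 and 16 with library-total scaling, 41 and 8 with quantile normalization). Of 24 ZIM genes 14 rose and 1 fell (13 and 2, then 13 and 1). Of 27 auxin response factors 13 rose and 0 fell (6 and 2, then 10 and 0). Of 25 C2C2-Dof genes 13 rose and 2 fell (12 and 4, then 13 and 3). Other families had more falls than rises: 9 of 16 Alfin-like genes fell and 0 rose (10 and 0, then 9 and 0), 9 of 15 FAR1-like genes fell and 0 rose (13 and 0, then 7 and 0), and 8 of 19 TCP genes, which control leaf growth, fell and 2 rose (10 and 2, then 9 and 2).

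Genes of the organelle genomes had more rises than falls, beside 15.7% and 17.8% of all genes tested. Of 41 tested plastid genes 15 rose and 0 fell (16 and 0, then 19 and 0; 36.6% called), and of 32 mitochondrial genes 17 rose and 1 fell (15 and 1, then 18 and 1; 56.2% called). These genes took at most 0.407% of the reads of a library.

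Some genes were seen in the mutant at 0 h alone. In that group 3 genes had at least 1 FPKM in all 3 libraries and 0 reads in the other 15 libraries, and 8 genes were over 10 times any other library. Villin-2 had a mean of 4.73 FPKM there, and noroxomaritidine synthase had 2.62 FPKM, each listed at 0 elsewhere.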
